A study of Mus musculus with 36 samples.

Results

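Unstimulated enteric glial cells (EGCs) at 24 h were compared with unstimulated EGCs at 12 h, to describe how the baseline changes with time in culture and what these cells express most. The comparison holds 8 of the 36 libraries of the series, chosen by their labels alone: 4 libraries labelled unstimulated at 24 h and 4 labelled unstimulated at 12 h. All 8 are wild-type (WT) mouse EGCs grown from embryonic neurospheres and kept without conditioned medium. The other libraries used here are the 4 unstimulated ones of 6 h, the 8 of EGCs exposed for 12 h or 24 h to H-CM, the conditioned medium of digested healthy colon, and the 8 exposed as long to TME-CM, the conditioned medium of digested MC38 colon tumors grown in mice. By the study's methods, whole intestines of C57BL/6J embryos were digested, grown as spheres with EGF and FGF, dissociated, and differentiated on coated plates in medium with fetal serum, with no sort for glial cells. Nothing in the labels says that the 4 replicates of a group came from separate cultures, so p-values measure the spread between these libraries, which may be technical.

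Enteric glia are the supporting cells of the nervous system of the gut. They descend from the neural crest, share the transcription factor Sox10 and the calcium-binding protein S100b with other peripheral glia, and lie around enteric neurons. Cultures of gut tissue from embryos can also hold the contractile and matrix-forming cells of the gut wall, and smooth muscle actin can be made by smooth muscle cells and by myofibroblasts.

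The QuantSeq 3′ kit gives reads near the 3′ end of each transcript, so a level is not divided by transcript length and levels of different genes can be set side by side on one scale. Levels are in CPM, each gene's count relative to the TMM-scaled size of its library. Totals ran from 2005239 to 5961933 counts at 12 h (median 3361052) and from 4064537 to 6778936 at 24 h (median 5888204), and a count of 0 allows up to 1.64 CPM in the shallowest library and up to 0.387 CPM in the deepest, taking 3 counts as the limit and counting error only. 12 h replicate 2 and 24 h replicate 1 stood apart from the other libraries. Their weights in limma's voom model were 0.423 and 0.465, against 0.925 to 1.83 in the others. Results are also given below without them, a choice made after seeing the data. The entry Yam1 alone took from 12.6% to 39.9% of the counts at 12 h and from 12.7% to 30.7% at 24 h.

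Glial genes were present at modest levels and genes of contractile and matrix-forming cells were far more abundant, which goes against reading the libraries as glia alone. Of the 12 genes in the enteric glial signature, all had counts and 11 were expressed enough to be tested. S100b lay between 55.4 and 92.5 CPM over the 8 libraries and Sox10 between 59.5 and 84.7 CPM. Gfap, the intermediate filament of mature glia, lay between 0.437 and 6.17 CPM, and the glial sodium channel gene Scn7a did not exceed 0.593 CPM. The signature summed to 1321 to 1530 CPM at 12 h and 1211 to 1387 CPM at 24 h, of which Prnp, which many cell types express, gave 616 to 710 CPM.

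Other cell types were represented as well. The 11 smooth muscle genes summed to 6826 to 7178 CPM at 12 h and 9695 to 11576 CPM at 24 h, and the groups did not overlap. The 10 fibroblast and mesenchyme genes, among them the collagen genes Col1a1 and Col3a1 and the proteoglycan gene Dcn, summed to 6223 to 7539 CPM and 6588 to 8236 CPM, and here the groups overlapped. Enteric neuron genes were also read, with Uchl1 at 167 to 228 CPM and the RNA-binding protein gene Elavl4 at 55.7 to 97.7 CPM. Macrophage and leukocyte genes summed to 65.0 to 316 CPM at 12 h and 59.0 to 230 CPM at 24 h, Lyz2 giving the most. Epithelial genes summed to at most 12.2 CPM. Of the endothelial genes, Cldn5 had 0 counts in all 8 libraries. In these bulk libraries, fewer cells of a type and less RNA per cell cannot be told apart.

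**Figure D1:**
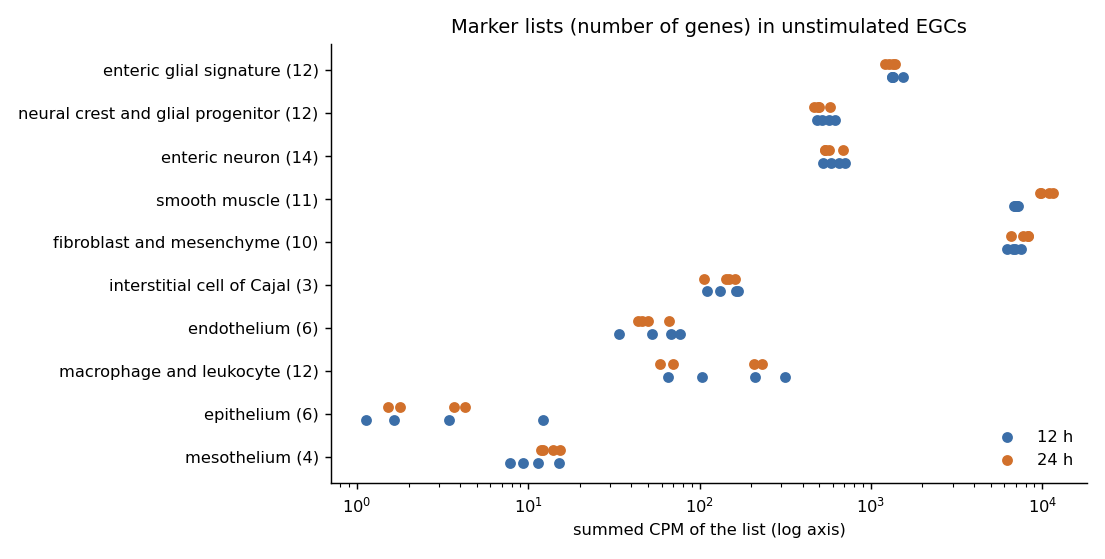
Summed CPM of each marker list in the 8 unstimulated libraries, on a log axis, with 1 point per library (blue, 12 h; orange, 24 h) and the number of genes of each list in parentheses. The smooth muscle list separates the times, 6826 to 7178 against 9695 to 11576 CPM, while the enteric glial signature lies lower and overlaps, 1321 to 1530 against 1211 to 1387 CPM.

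The most abundant transcripts of unstimulated EGCs were those of the cytoskeleton, the matrix and the mitochondria. After Yam1, the highest mean levels were those of Actb (cytoplasmic actin) at 17507 CPM, mt-Rnr2 (mitochondrial ribosomal RNA) at 8454 CPM, Sparc (a matrix-binding glycoprotein) at 7271 CPM, H19 (an imprinted noncoding RNA of embryonic tissue) at 5791 CPM and Acta2 (smooth muscle actin) at 4905 CPM. They were followed by the tetraspanin gene Cd63 at 4189 CPM, Col1a1 at 3988 CPM, mt-Rnr1, mt-Nd4, the actin-binding genes Cald1 and Tpm1 at 3203 and 2937 CPM, Tmsb4x, Vim at 2549 CPM, Hsp90ab1, mt-Nd2, Lgals1, Timp2, S100a6 and the myosin light chain kinase gene Mylk at 2086 CPM. No gene of the enteric glial signature was among these 20 genes. Together the 20, Yam1 included, took 21.7% to 46.6% of the counts at 12 h and 22.2% to 38.4% at 24 h. Most of that share was Yam1 in the libraries where it was highest, as it alone took 12.6% to 39.9% and 12.7% to 30.7%. Genes encoded in the mitochondria took 1.93% to 3.18% and 1.95% to 2.93%, and ribosomal protein genes 2.48% to 3.25% and 2.82% to 3.38%.

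Much the same genes were at the top of the list at both times, though their order shifted. Ranking the 12 h libraries alone kept 18 of the 20 genes, and ranking the 24 h libraries alone kept all 20. Of the 20, Acta2 alone passed the test between the times (edgeR, described below). H19 had 6518 ± 1095 CPM at 12 h and 5065 ± 908 CPM at 24 h (SD, n = 4 each), and mt-Rnr2 had 9668 ± 1188 and 7239 ± 842 CPM. Neither passed the test after adjustment. S100a6, a calcium-binding protein gene of mesenchymal and reactive glial cells, had 1939 ± 201 and 2518 ± 305 CPM, and it did not pass the test either.

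**Figure D2:**
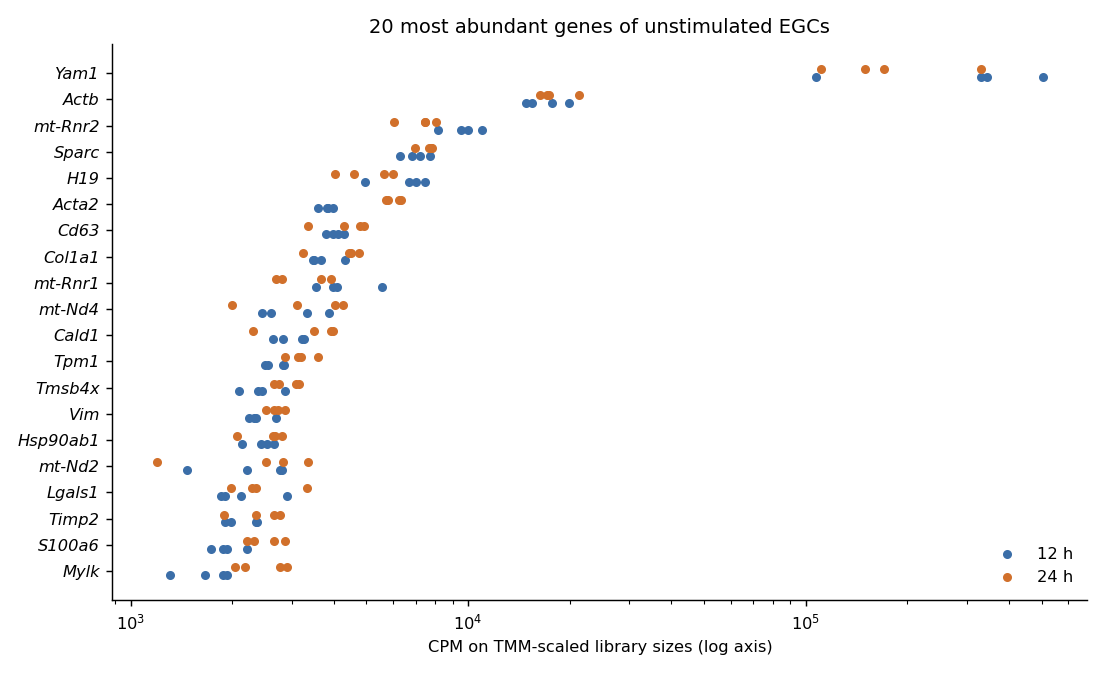
Level of the 20 most abundant genes in each unstimulated library, in CPM on a log axis, with 1 point per library (blue, 12 h; orange, 24 h). The groups overlap for most genes, and Acta2 separates them, at 3589 to 3988 CPM against 5702 to 6318 CPM.

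Across all genes the libraries of the times were not clearly apart. Of the squared distances among the 8 libraries on variance-stabilized values, 16.4% lay between 24 h and 12 h (exact permutation test over the 35 splits, two-sided, p = 0.229, with 0.0286 the smallest p that 4 against 4 allows). The first principal component, with 36.8% of the variance, placed 12 h replicate 2 at 35.1 and every other library between −9.58 and 8.59. The second, with 19.9%, placed 24 h replicate 1 at 24.8 and the other 24 h libraries between −0.00858 and 2.19, and the 12 h libraries between −13.0 and −0.657. The 24 h libraries thus lay above the 12 h libraries on the second component, by a narrow gap, and each component had its most distant point in 1 of the libraries that stood apart.

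Of the 11872 genes tested, 2 passed an adjusted p of 0.05 between 24 h and 12 h, which is 0.0168% of the genes tested (1 higher and 1 lower, 0.00842% each). Acta2, the actin of contractile cells, rose, and Mmp10, which encodes stromelysin-2, a secreted protease of the extracellular matrix, fell. At an unadjusted p under 0.05 there were 730 genes (6.15%), 359 higher at 24 h (3.02%) and 371 lower (3.12%). The 4 libraries of 24 h lay all above those of 12 h for 301 genes (2.54%) and all below for 216 (1.82%), together 4.35% of the genes tested. The median log2 fold change over all genes tested was −0.00452.

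Stretches of sequence upstream of the called genes are shown because they are the only genes of the comparison past the threshold. They are from the RefSeq table of promoters (GRCm38.p6, the assembly also called mm10), which holds both genes. Capitals mark a match to a CArG box, the element bound by serum response factor at contractile genes, allowing 1 G or C in its A and T core, or to TGANTCA, the AP-1 element bound by Fos and Jun proteins. Both strands were searched, and both elements read the same way on either strand apart from their variable bases.
Acta2, chr19:34255438-34255467, minus strand: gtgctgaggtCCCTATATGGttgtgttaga
Acta2, chr19:34255388-34255417, minus strand: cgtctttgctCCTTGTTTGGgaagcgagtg
Mmp10, chr9:7502092-7502341, plus strand: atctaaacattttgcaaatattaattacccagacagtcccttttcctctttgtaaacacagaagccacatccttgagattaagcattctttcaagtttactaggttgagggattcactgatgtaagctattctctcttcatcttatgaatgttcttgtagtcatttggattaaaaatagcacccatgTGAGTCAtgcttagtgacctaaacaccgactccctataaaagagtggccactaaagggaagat
The Acta2 matches lay at bases −84 to −75 and −34 to −25 from the start site given there (34255373), inside a longer annotated transcript whose gene span (chr19:34240336-34255585) begins further upstream, and the Mmp10 match lay at −63 to −57 from its start site (7502342). No CArG box with an unbroken core was found in the Acta2 window of 300 bases. Of all 32851 promoter windows of that length, 9.98% hold a CArG box with at most 1 G or C in the core, 1.63% an unbroken one, and 7.81% the AP-1 element. A match of letters describes the sequence and says nothing of binding in these cells.

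Acta2 had 3589, 3835, 3809 and 3988 CPM in the 12 h libraries (replicates 1 to 4) and 5776, 6318, 6225 and 5702 CPM in the 24 h libraries. Every 24 h library lay far above every 12 h library, and the spread within a time was small beside the gap. The means were 3805 ± 164 and 6005 ± 311 CPM (SD, n = 4), and the log2 fold change was 0.66 with a standard error (SE) of 0.10 (95% interval 0.44 to 0.87, edgeR's quasi-likelihood test, Benjamini-Hochberg adjusted p = 0.0293).

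Mmp10 had 126, 136, 122 and 126 CPM at 12 h and 73.9, 50.7, 67.3 and 60.8 CPM at 24 h. Again the groups did not overlap, and the 12 h libraries lay close together. The means were 128 ± 6.03 and 63.2 ± 9.86 CPM, and the log2 fold change was −1.02 with an SE of 0.15 (95% interval −1.33 to −0.70, adjusted p = 0.0293, same test). Mmp10 lies at chr9:7502342-7510242.

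Both calls depended on single libraries. They were lost without 12 h replicate 1, 2 or 3 and without 24 h replicate 2, 3 or 4, where 0 genes were called, and the adjusted p of Acta2 then lay between 0.0649 and 0.288 and that of Mmp10 between 0.0548 and 0.224. Without 12 h replicate 4 there were 11 calls and without 24 h replicate 1 there were 12. With a replicate block in the edgeR model, 0 genes were called and the adjusted p of both Acta2 and Mmp10 was 0.231. Without both libraries that stood apart, an exclusion chosen after seeing the data, there were 64 calls among 12330 genes (0.519%). Of these, 51 were higher (0.414%) and 13 lower at 24 h, Acta2 and Mmp10 among them. The direction and size varied little: over 19 alternatives the log2 fold change of Acta2 ran from 0.63 to 0.69 and that of Mmp10 from −1.09 to −0.92.

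Fewer than 5 genes were called in each direction. The naming rule then gives the 5 genes with the lowest unadjusted p in each direction. Beside the called ones, 7 of them are given. None of the 7 passed the test. Higher at 24 h were Gas6, the ligand of the TAM receptor kinases, 2810417H13Rik (Pclaf), a PCNA-binding protein of replicating cells, Birc5, the chromosomal passenger survivin, and Cnn1, the calponin of smooth muscle. Gas6 had 181, 223, 209 and 265 CPM at 12 h and 367, 396, 351 and 392 CPM at 24 h (log2 fold change 0.77 ± 0.14 SE, adjusted p = 0.0793). 2810417H13Rik had 16.4, 33.6, 32.3 and 33.7 CPM at 12 h and 62.5, 68.0, 58.1 and 75.9 CPM at 24 h (1.16 ± 0.21 SE, adjusted p = 0.0793). The lowest 24 h library of either gene exceeded its highest 12 h library. Birc5 had 24.6, 24.0, 24.5 and 34.3 CPM against 47.2, 51.6, 54.2 and 72.2 CPM (1.051 ± 0.20 SE, adjusted p = 0.0894). Cnn1 had 102, 106, 80.4 and 96.0 CPM against 173, 186, 160 and 139 CPM (0.78 ± 0.15 SE, adjusted p = 0.0894). Here too all 4 libraries of 24 h lay above all 4 of 12 h, which is likely for genes chosen by a low p.

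Lower at 24 h were Mt2, a metal-binding metallothionein, Hspa5, the chaperone BiP of the endoplasmic reticulum (ER), and Creld2, an ER stress response gene. Mt2 had 158, 228, 151 and 99.9 CPM at 12 h and 92.9, 64.5, 66.2 and 66.5 CPM at 24 h (log2 fold change −1.13 ± 0.21 SE, adjusted p = 0.0894). Its 12 h libraries were widely spread, and the lowest of them lay just above the highest 24 h library. Hspa5 had 1823, 1895, 1616 and 1624 CPM against 1013, 1224, 1117 and 1248 CPM (−0.60 ± 0.12 SE, adjusted p = 0.101). Creld2 had 24.6, 38.0, 39.4 and 36.7 CPM against 20.3, 16.3, 14.2 and 17.8 CPM (−1.03 ± 0.22 SE, adjusted p = 0.139), with 12 h replicate 1 nearest to the 24 h libraries. Mt2 shares 432 exon bases with a gene on the other strand (Gm45774) and Gas6 shares 34 with Tmem255b, and reads of such pairs cannot be told apart unless counting used strand, which the sources used here do not say.

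**Figure D3:**
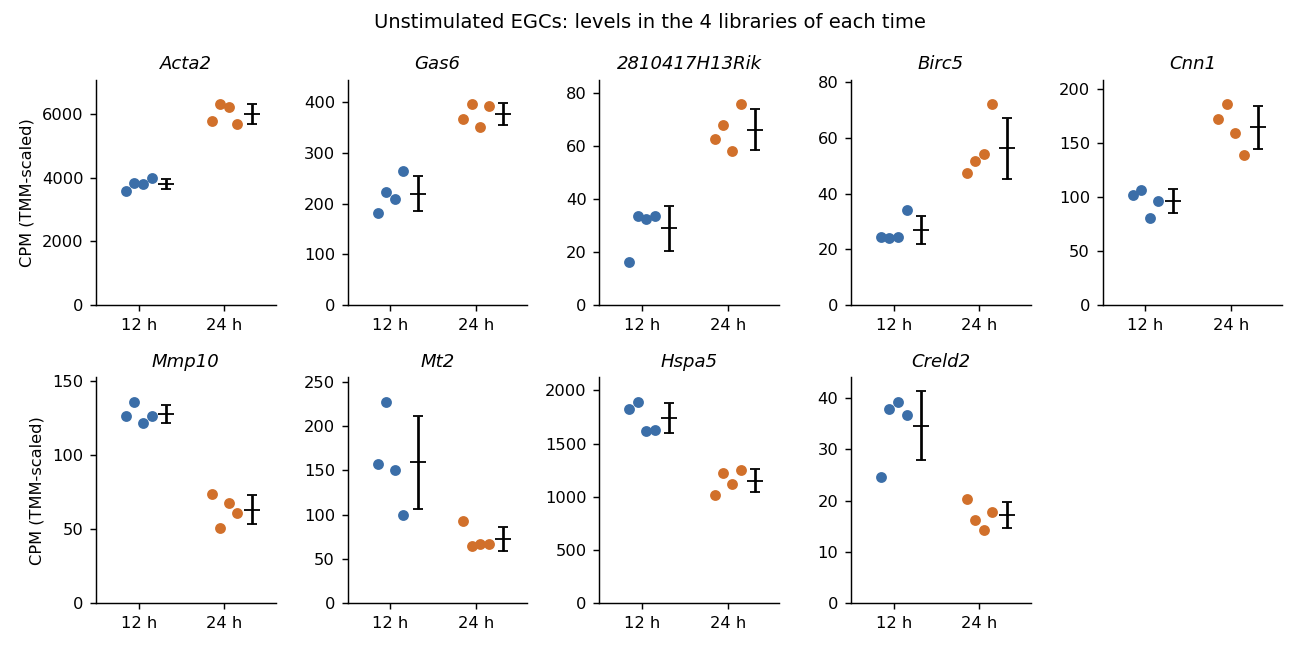
CPM of the called genes Acta2 and Mmp10 and of 7 genes of the next lowest p, with 1 point per library (blue, 12 h; orange, 24 h) and the mean and SD of each time in black, each axis starting at 0. In every panel the points of the 2 times do not overlap, which is likely for genes chosen by a low p. The gap is widest beside the spread for Acta2 and Mmp10.

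Genes of the cell cycle were higher at 24 h than at 12 h as a group, without any of them passing the test after adjustment. Of 20 S phase genes, which act in DNA replication, all were tested and 0 were called. A positive fold change was found for 19, an unadjusted p under 0.05 with a higher level at 24 h for 12, and with a lower level for 0, where 3.02% of all genes were higher at that p. The median log2 fold change of the list was 0.61. The list summed to 483, 447, 498 and 569 CPM at 12 h and 799.9, 720, 751 and 801 CPM at 24 h, and the groups did not overlap.

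From here on, list members that were not called were chosen after their values were seen. Exceptions are genes already named above and the clock and glial signature genes, which a rule named. Uhrf1, which carries DNA methylation through replication, had 11.5 ± 0.801 CPM at 12 h and 25.8 ± 2.20 CPM at 24 h (log2 fold change 1.15, adjusted p = 0.101). The cyclin E genes, which drive entry into S phase, were Ccne1 at 21.1 ± 6.10 and 43.1 ± 4.25 CPM (1.0, adjusted p = 0.151) and Ccne2 at 11.8 ± 5.32 and 29.8 ± 10.7 CPM (1.28, adjusted p = 0.274). Ccne1 separated the groups and Ccne2 did not. Mcm3, a subunit of the replicative helicase, had 39.1 ± 7.15 and 65.8 ± 6.85 CPM (0.76, adjusted p = 0.207). The subunits of ribonucleotide reductase, which makes deoxynucleotides, were Rrm1 at 75.0 ± 16.5 and 116 ± 11.1 CPM and Rrm2 at 20.7 ± 3.69 and 39.3 ± 11.7 CPM. Cdt1, a licensing factor degraded in S phase, was the exception of the list at 30.9 and 26.8 CPM.

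The G2 and mitosis genes showed the same. All 20 were tested, 0 were called, and all 20 had a positive fold change, 13 of them with an unadjusted p under 0.05. The median log2 fold change was 0.72, and the list summed to 396 to 469 CPM at 12 h and 661 to 841 CPM at 24 h. Top2a, the topoisomerase of dividing cells, had 96.9, 72.9, 105 and 90.5 CPM at 12 h and 122, 163, 147 and 170 CPM at 24 h (0.72, adjusted p = 0.151). The spindle factor gene Tpx2 had 40.0 ± 3.18 and 66.4 ± 7.23 CPM (0.73, adjusted p = 0.155). Each 24 h library exceeded each 12 h library for both. Ube2c, an E2 enzyme of the anaphase-promoting complex, had 20.7 ± 3.96 and 39.1 ± 9.74 CPM, and the mitotic kinase gene Plk1 26.0 ± 3.74 and 43.1 ± 7.93 CPM. The proliferation marker Mki67 moved little, from 19.5 to 23.3 CPM (log2 fold change 0.24). Most members of either list were low, with median mean levels of 24.7 CPM for S phase and 19.3 CPM for G2 and mitosis, where counting error adds to the spread. Without the 2 libraries that stood apart, 4 S phase genes and 3 G2 and mitosis genes of 20 each were called, where 0.519% of all genes were. That exclusion was chosen after seeing the data, so these calls are no separate support.

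Contractile genes were the other group with higher levels at 24 h. Of the 11 smooth muscle genes, 1 was called (Acta2), 7 had an unadjusted p under 0.05 with a higher level at 24 h and 0 with a lower one, and the median log2 fold change was 0.55. Without the 2 libraries that stood apart, left out after seeing the data, 6 of the 11 were called, where 0.519% of all genes were. Besides Acta2 and Cnn1, Actg2, the smooth muscle gamma-actin, had 179, 262, 193 and 176 CPM at 12 h and 404, 326, 288 and 267 CPM at 24 h (0.67, adjusted p = 0.249). Mylk had 1694 ± 283 and 2479 ± 430 CPM (0.55, adjusted p = 0.330). Every 24 h library of these genes lay above every 12 h library. Tagln, the actin-binding protein transgelin, had 722 ± 85.0 and 918 ± 118 CPM with overlapping groups (0.35, adjusted p = 0.689). Des, the muscle intermediate filament gene, was level, with 111 to 154 CPM at 12 h and 121 to 148 CPM at 24 h. Prkg1, which the study also used as a smooth muscle marker, was the 1 member with a negative fold change. It had 26.0 ± 17.9 and 18.8 ± 5.02 CPM with overlapping groups (−0.43, adjusted p = 0.957).

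The wider list of SRF and YAP targets, genes driven by the cytoskeleton and by tension, did not move one way. It shares Acta2 and Tagln with the smooth muscle list. Of its 17 genes, 6 were higher and 2 lower at an unadjusted p under 0.05, with a median log2 fold change of 0.13. Tpm2, a tropomyosin, had 525 ± 55.1 and 730 ± 52.5 CPM (0.48, adjusted p = 0.282), and the calponin gene Cnn2 382 ± 38.6 and 484 ± 43.6 CPM (0.34, adjusted p = 0.688). Among the lower genes was the matrix signal Cyr61 (Ccn1), with 259 ± 53.4 and 181 ± 59.6 CPM (−0.52, adjusted p = 0.745). Summed markers of fibroblasts and mesenchyme overlapped between the times while the contractile sum did not, and the part of cell composition in either result was not tested.

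Of the S100 proteins, small calcium sensors of which S100b marks glia, 3 of 8 were higher at 24 h at an unadjusted p under 0.05. These were S100a4 at 246 ± 19.4 and 319 ± 40.9 CPM, S100a6, given above, and S100a11 at 888 ± 136 and 1117 ± 60.8 CPM, with adjusted p of 0.646, 0.566 and 0.689. S100b itself had 72.5 ± 13.9 and 69.5 ± 11.7 CPM.

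The ER chaperone list was led by few of its members. Of 17 genes, 4 were lower at 24 h at an unadjusted p under 0.05 and 0 were higher, and the median log2 fold change was −0.10. Beside Hspa5 and Creld2, these were Dnajb9, a co-chaperone of BiP, at 14.3 ± 3.56 and 8.73 ± 2.29 CPM, and Xbp1, a transcription factor of the unfolded protein response, at 77.5 ± 14.8 and 59.3 ± 11.5 CPM. Hyou1, a chaperone of the ER lumen, had 92.5 ± 9.33 and 75.6 ± 3.59 CPM (adjusted p = 0.818). Abundant chaperones of the same compartment were close to level: Calr had 904 and 925 CPM, Pdia3 881 and 894 CPM, and Hsp90b1 813 and 771 CPM. The list summed to 6228 to 6781 CPM at 12 h and 5284 to 5907 CPM at 24 h, without overlap, with Hspa5 as its largest part.

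The second metallothionein gene, Mt1, resembled Mt2, with 306, 467, 300 and 306 CPM at 12 h and 293, 177, 212 and 223 CPM at 24 h (log2 fold change −0.61, adjusted p = 0.413). Its groups barely parted, and 12 h replicate 2 was far above the rest. Hbegf, a growth factor of the EGF family, had 215 ± 9.16 and 146 ± 14.0 CPM without overlap (−0.55, adjusted p = 0.204).

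**Figure D4:**
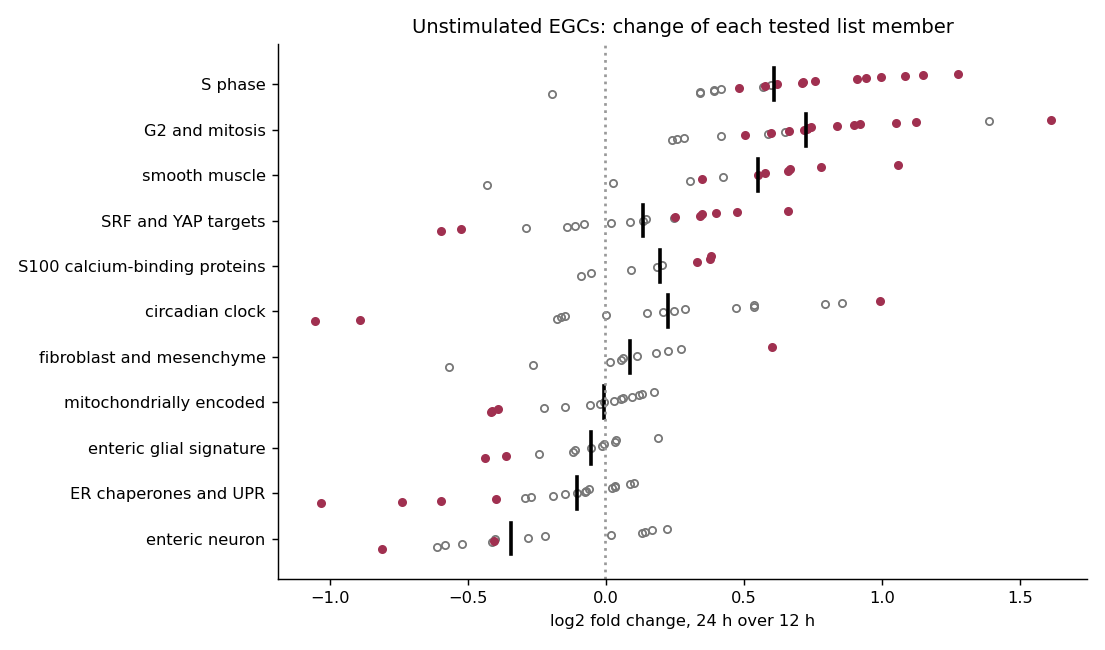
Log2 fold change, 24 h over 12 h, of each tested member of 11 gene lists in unstimulated EGCs. Filled points have an unadjusted p under 0.05 and open points do not, black bars are list medians, and the dotted line is the median of all genes tested; the medians of S phase (0.61), G2 and mitosis (0.72) and smooth muscle (0.55) lie to the right, and that of enteric neuron (−0.34) to the left.

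Glial identity genes were nearly level. In the enteric glial signature, 0 of 11 tested genes were called, 3 had a positive and 8 a negative fold change, and the median was −0.05. Sox10 had a log2 fold change of −0.01, S100b of −0.05, Cdh19, a cadherin of Schwann cell precursors, of −0.01, Prnp of 0.04, Aldh1a1, a retinaldehyde dehydrogenase, of 0.03, Fxyd1, a regulator of the sodium pump, of −0.12, Gfap of −0.11 and Pmp22 of 0.19. The lowest were the small heat shock protein gene Cryab (318 ± 61.3 and 247 ± 32 CPM, −0.36, adjusted p = 0.750) and clusterin, Clu (80.5 ± 7.27 and 59.3 ± 3.81 CPM, −0.44, adjusted p = 0.645), and Clu was the 1 gene of the list whose groups did not overlap.

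Of the 11 neural crest and glial progenitor genes tested, 0 were called, 2 (Ednrb and Nes) were lower at an unadjusted p under 0.05, and the median log2 fold change was −0.03. The neurotrophin receptor gene Ngfr had −0.00142 and the neuregulin receptor gene Erbb3 0.17. Ednrb, the endothelin receptor that crest cells need to colonize the gut, had 29.0, 27.1, 14.9 and 27.1 CPM at 12 h and 13.2, 13.3, 13.9 and 13.4 CPM at 24 h (log2 fold change −0.86, adjusted p = 0.428). Ret, the receptor of GDNF, had 20.2, 20.1, 21.6 and 20.4 CPM and 10.8, 9.74, 9.93 and 16.3 CPM (−0.81, adjusted p = 0.550). The groups did not overlap for either gene, but 12 h replicate 3 came close for Ednrb and 24 h replicate 4 for Ret. Nes, the filament gene of neural progenitors, had 151 ± 9.44 and 123 ± 13.9 CPM, and Elavl4 88.8 ± 9.41 and 67.1 ± 11 CPM, neither past the test. Of the 14 enteric neuron genes, 9 had a negative fold change (median −0.34), 2 of them with an unadjusted p under 0.05, while Uchl1 (0.13) and Nos1 (0.22) were not lower.

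The circadian clock is a feedback loop in which Arntl and Clock drive the Per and Cry genes and the output factors Dbp, Tef and Hlf. The times lie 12 h apart, and this list, like the others, was chosen with earlier results of these data known. Of 18 genes, 16 were tested and 0 were called, with a median log2 fold change of 0.23. Tef had 41.6, 32.7, 36.8 and 43.9 CPM at 12 h and 53, 95.1, 83.4 and 77.1 CPM at 24 h (0.99, adjusted p = 0.0958), with 24 h replicate 1 nearest to the 12 h libraries. Nfil3, which represses the genes that Tef drives, had 18.8 ± 4.84 and 10.3 ± 3.62 CPM (−0.89, adjusted p = 0.646). Arntl had 10 ± 3.26 and 4.97 ± 2.60 CPM (−1.05, adjusted p = 0.733). The groups of Nfil3 and Arntl overlapped.

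Other clock genes were low and none was near the threshold. The log2 fold changes were 0.54 for Dbp, 0.85 for Hlf, 0.79 for Per2, 0.54 for Per3, −0.16 for Per1, 0.15 for Cry1, 0.47 for Cry2, −0.15 for Nr1d1, 0.25 for Nr1d2, −0.18 for Clock, 0.29 for Bhlhe40, 0.21 for Bhlhe41 and 0.00 (4.36e-05) for Rora. Rora was the most abundant of these, at 34.6 to 72.2 CPM, and the Per genes did not exceed 18.8 CPM. Npas2 and Ciart were too low to be tested.

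The other lists showed few genes at an unadjusted p under 0.05. There were 0 of 22 for sterol synthesis, 0 of 13 for fatty acid synthesis and 0 of 16 for the tested collagens, and the median log2 fold changes were −0.07, −0.01 and 0.08. Of 14 immediate early genes, 1 was lower (Fosl1), and of 25 genes of hypoxia and glycolysis 1 was higher (Slc16a3). Among matrix genes, Bgn (640 ± 42.9 and 838 ± 144 CPM), Loxl2 and Serpinh1 were higher and Tnc (834 ± 161 and 628 ± 53.6 CPM) lower, of 21 tested. Of the BMP and TGF-beta response, 3 of 18 genes were lower (Id2, Skil and Bmp2). Interferon response genes gave 0 of 15 and of 11 NF-kB targets and chemokines 1 was higher (Vcam1, 0.79). Of 15 genes encoded in the mitochondria, 3 were lower, mt-Nd5 and the ribosomal RNAs mt-Rnr1 and mt-Rnr2, while the other protein-coding ones lay between −0.22 and 0.18.

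Cultures kept in conditioned medium share no library with the unstimulated ones, so their own 24 h and 12 h libraries (4 and 4 in each condition) show which differences with time were found in other libraries too. In H-CM EGCs 0 of 11997 genes were called (0%), with 634 at an unadjusted p under 0.05 (5.28%, of which 2.27% higher and 3.02% lower). Among TME-CM EGCs 63 of 11812 were called (0.533%), 50 higher (0.423%) and 13 lower (0.11%) at 24 h, and 8.12% had an unadjusted p under 0.05 (4.38% higher and 3.74% lower). Of the genes with an unadjusted p under 0.05 in unstimulated EGCs, 552 of 717 had the same sign among H-CM EGCs (77.0%) and 571 of 714 among TME-CM EGCs (80.0%), beside 58.4% and 58.7% of all genes tested in both. The 4 replicates of a time may still have been handled together across conditions, which the labels do not say.

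The median changes of the cell cycle lists were positive in all conditions. The median log2 fold change of the S phase list was 0.61 in unstimulated EGCs, 0.37 with H-CM and 0.69 with TME-CM, and that of the G2 and mitosis list 0.72, 0.77 and 1.49. With H-CM 0 genes of either list were called, 5 of 20 S phase genes (16 positive) and 13 of 20 G2 and mitosis genes (20 positive) having an unadjusted p under 0.05 with a higher level at 24 h. In TME-CM EGCs 9 of the 20 G2 and mitosis genes and 1 of the 20 S phase genes were called, all higher. Mmp10 fell in TME-CM EGCs, from 601 ± 96.4 to 239.6 ± 41.5 CPM (adjusted p = 0.00219), and in H-CM EGCs, where it did not pass the test, it had 344 ± 212 and 123 ± 14.6 CPM. In the order unstimulated, H-CM and TME-CM, the log2 fold changes of Mmp10 were −1.02, −1.49 and −1.33. Hspa5 had −0.60, −0.38 and −0.56, Mt2 −1.13, −0.62 and −0.73, and Tef 0.99, 0.71 and 0.43.

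The contractile genes were more mixed. In H-CM EGCs 0 of the 11 smooth muscle genes had an unadjusted p under 0.05, and in TME-CM EGCs 2 were higher and 1 lower at that p, of which 1 was called: Lmod1, an actin filament nucleator of muscle, rose there (log2 fold change 1.36, adjusted p = 0.0280), against 0.42 in unstimulated EGCs. Mylk had 0.73 with TME-CM and did not pass after adjustment. The median log2 fold change of the smooth muscle list was 0.55 in unstimulated EGCs, −0.04 with H-CM and −0.11 with TME-CM. Scaled within each condition, Acta2 had 3156 ± 493 and 2978 ± 263 CPM in H-CM EGCs at 12 h and 24 h, and 2262 ± 105 and 1603 ± 345 CPM in TME-CM EGCs. The highest level of Acta2 in these 16 libraries, 3819 CPM, was below all 24 h unstimulated libraries.

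The differences between the changes were tested in models of 16 libraries. Between H-CM and unstimulated EGCs, 0 of 12732 genes were called (0%), with 309 at an unadjusted p under 0.05 (2.43%) and 0 by DESeq2, and the difference for Acta2 was −0.74 ± 0.18 SE on the log2 scale (95% interval −1.12 to −0.36), which did not pass after adjustment. Between TME-CM and unstimulated EGCs, 3 of 12679 genes were called (0.0237%), with 443 at an unadjusted p under 0.05 (3.49%). The change of Acta2 was lower by −1.15 ± 0.18 SE in TME-CM EGCs (adjusted p = 0.0106). Gstm1, a glutathione transferase, had 63.4 ± 14.4 and 36.3 ± 3.22 CPM in unstimulated EGCs and 127 ± 14.9 and 180.5 ± 23.0 CPM in TME-CM EGCs, a difference of 1.31 ± 0.23 SE (adjusted p = 0.0398). Saa3, an acute phase protein gene, had 35.6 ± 4.25 and 30.9 ± 6.43 CPM in unstimulated EGCs and 8406 ± 1248 and 15948 ± 2442 CPM in TME-CM EGCs, a difference of 1.16 ± 0.21 SE (adjusted p = 0.0398). The call of Acta2 was lost when unstimulated 12 h replicate 1 was left out (adjusted p = 0.0600), and held without each of the other 15 libraries. Gstm1 kept its call without unstimulated 12 h replicate 4, unstimulated 24 h replicate 1 or TME-CM 24 h replicate 2 and lost it without any other library (adjusted p up to 0.183). Saa3 kept its call in 5 of these 16 fits (adjusted p up to 0.256 in the others).

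**Figure D5:**
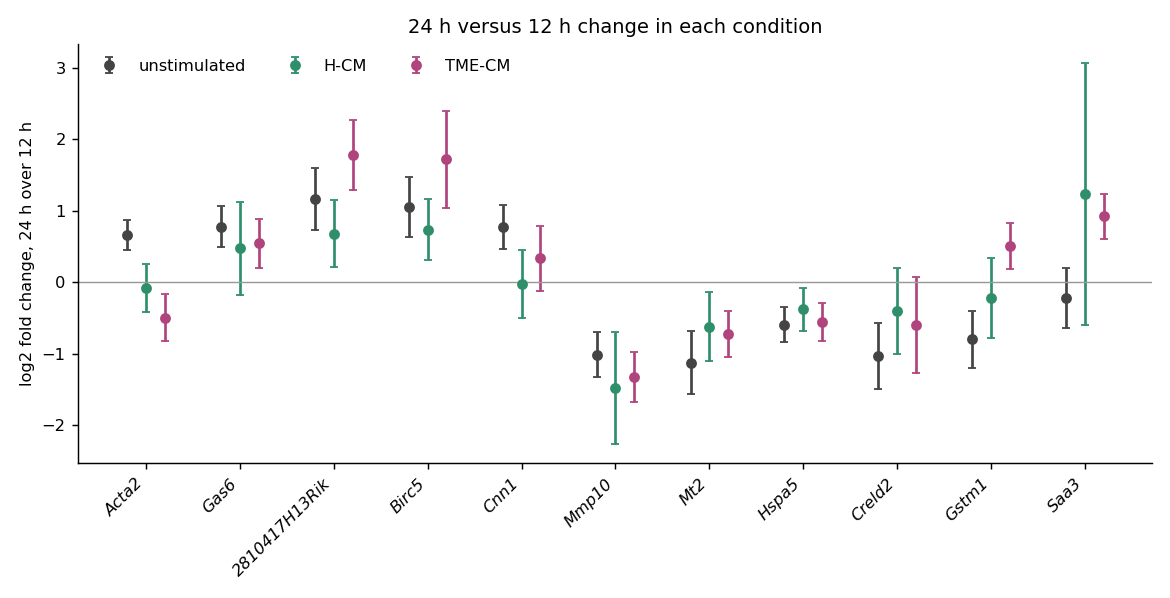
Log2 fold change, 24 h over 12 h, in unstimulated, H-CM and TME-CM EGCs (4 libraries per time in each), with 95% intervals, for genes of lowest p in unstimulated EGCs and for Gstm1 and Saa3. Mmp10 lies below 0 in all 3 conditions, at −1.02, −1.49 and −1.33, whereas Acta2 is at 0.66 in unstimulated and −0.50 in TME-CM EGCs.

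At 6 h, the unstimulated libraries were shallower (256453 to 4631102 counts) and their levels spread more widely. On one scaling of all 12 unstimulated libraries, Acta2 had a median of 2033 CPM at 6 h (1010 to 3363), 3457 at 12 h and 5445 at 24 h, and every 24 h library lay above every earlier one. Mmp10 had medians of 133 (50.2 to 314), 114 and 58.0 CPM, and its 6 h range overlapped both later groups. Mylk had medians of 832, 1607 and 2244 CPM, and its highest 6 h library, at 867 CPM, lay below all later ones. Cell cycle genes were mixed. Top2a had medians of 109 (57.8 to 316 at 6 h), 84.8 and 140 CPM, and Mcm3 51.1 (30.4 to 166), 38.6 and 57.2 CPM. For these the 12 h median was the lowest. Ccne1 had 6.80, 18.3 and 38.5 CPM and Rrm1 50.8, 68.6 and 109 CPM, higher at each later time. With all 12 libraries in one model, which then share a dispersion, 0 genes were called between 24 h and 12 h, with 116 at an unadjusted p under 0.05.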

How the data were processed

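The authors trimmed adapters with fastq-mcf, used HISAT2 for alignment (mm10), left out multi-mapping reads and counted per gene with HT-seq Count. They deposited raw counts for 43472 gene symbols. Per the labels, FastQC 0.11.7 and SAMtools 1.5 were also used. The annotation, the strand setting and any molecular identifiers are not given in the sources used here. Libraries were grouped by their labels.

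The main test was edgeR 4.0.16 in R 4.3.3 (filterByExpr, minimum count 10, TMM, robust quasi-likelihood fit of the 8 libraries, Benjamini-Hochberg, threshold 0.05). The common dispersion was 0.0641 and the median SE of a log2 fold change 0.26. Differences of changes were tested as interaction terms over 16 libraries. Alternatives used DESeq2 1.42.0 and limma 3.58.1. The scripts were tested on simulated data. The members and gene lists were chosen with earlier results of these data known. Genes were named by the rule given above. Rules also named the 20 most abundant genes, up to 4 called members of each list and all detected clock and glial signature genes. Up to 5 genes called in a difference of changes were named as well. Other list members were chosen after their values were seen. Some genes that these rules choose are not reported here. Of the 48 genes chosen, 15 share exon bases with another gene in GENCODE M21, and 3 list members were matched by a synonym.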

Additional observations from a re-analysis of the deposited data

Results flagged for a closer look

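In 12 of 136 sets of 4 values checked, 1 library lay far from the other 3 (a gap to its nearest neighbour, relative to the range, beyond Dixon's 95% critical value), and chance alone does this in about 1 set in 20. At 12 h these were 2810417H13Rik in replicate 1 (16.4 CPM), Mt1 in replicate 2 (467 CPM), Mcm3, Xbp1 and Ednrb in replicate 3 (28.4, 99.5 and 14.9 CPM), and Birc5 in replicate 4 (34.3 CPM). The median correlation of 12 h replicate 2 with the other libraries, 0.883, was set apart in the same way. At 24 h they were Mt2 and Sparc in replicate 1 (92.9 and 6941 CPM) and Mcm3, Plk1 and Ret in replicate 4 (76.0, 54.9 and 16.3 CPM).

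The change from 12 h to 24 h differed between TME-CM and unstimulated EGCs, in a test of the difference itself, for Acta2 (−1.15 on the log2 scale), Gstm1 (1.31) and Saa3 (1.16). Acta2 rose in unstimulated EGCs and had a log2 fold change of −0.50 in TME-CM EGCs, which did not pass the test.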

How the results depend on the processing

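The count of 2 genes between 24 h and 12 h was also 2 with DESeq2's size factors, with libraries thinned to 2005239 counts and without Yam1, and 2 other genes (Tef and Mt2) with all 24 libraries of 12 h and 24 h. It was 64 (41 higher, 23 lower) with no filter on low counts and 35 (25 and 10) with DESeq2's Wald test. It was 0 with all 12 unstimulated libraries (116 at an unadjusted p under 0.05). With a replicate block it was 0 as well (592 at that p). The labels do not say that equal replicate numbers pair the samples. After each gene's mean at its time was subtracted, same-numbered libraries correlated at −0.09 (−0.0921), −0.10 (−0.102), 0.02 (0.0195) and 0.18. These values concern what is left after that step and cannot show whether the samples were paired. In replicate order, macrophage and leukocyte genes summed to 210, 316, 103 and 65.0 CPM at 12 h. At 24 h they summed to 230, 207, 69.9 and 59.0 CPM, so replicates 1 and 2 were higher at both times. Fibroblast and mesenchyme sums did not keep their order (6786, 6223, 6975 and 7539 CPM, then 6588, 8227, 8236 and 7747 CPM). Pairing itself was not tested. Leaving out 1 library gave 0 to 12. Chosen after seeing the data, leaving out the 2 libraries that stood apart gave 64 (51 and 13), a term for the share of Yam1 gave 7 (4 and 3) and limma's voom with library weights gave 43 (30 and 13). The causes of these moves were not tested. Where more genes were called, all of them that were tested in the 8-library fit kept their sign.

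Between TME-CM and unstimulated EGCs, the count of 3 became 31 with no filter and 11 with DESeq2's Wald test, stayed at 3 with the replicate block, and ran from 0 to 6 with 1 library left out (0 without unstimulated 12 h replicate 1, 6 without TME-CM 24 h replicate 2). Between H-CM and unstimulated EGCs it was 0 throughout, except 10 with no filter. The separation of the times stayed past no threshold, at 16.1% to 22.6% with 1 library left out (exact permutation p from 0.0571 to 0.429). Of 912 fold changes of the 48 genes chosen, under alternatives, 0 changed direction. Most of these genes were chosen after their values were seen, and the alternatives reuse the same 8 libraries or most of them. A kept sign was therefore likely from the start and shows little about robustness. The median SE of a log2 fold change, 0.26, limits what these 8 libraries can show.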
